A study of Mus musculus with 26 samples.

Results

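The platelet-derived growth factor (PDGF) family comprises 2 receptor genes, Pdgfra and Pdgfrb, and 4 ligand genes, Pdgfa, Pdgfb, Pdgfc and Pdgfd. These 6 genes were chosen by name and matched through their Ensembl identifiers among the 54532 genes of the deposited count table, and all 6 were found. RNA was measured in 26 mouse libraries. Retina IP (6 libraries) is RNA immunoprecipitated from astrocytes of the retina, and retina input (6 libraries) is retinal RNA without that step. ONH IP and ONP IP (7 libraries each) are astrocyte immunoprecipitates from the optic nerve head, where ganglion cell axons leave the eye, and from the optic nerve proper, the myelinated nerve behind it. All animals were untreated and all libraries carry the label day 0. Strain, genotype, age, sex, the tag that was precipitated, the promoter that drove it and the number of animals behind a library are not given in the sources used here, so a p-value here reflects library-to-library spread, part of which may be technical. The retina IP libraries were compared with retina input, which shows what the precipitation enriched, and with the nerve libraries, which shows how the precipitated RNA differs between regions. That RNA includes RNA of other cells, no nerve input is among the libraries, and region and batch largely coincide. A regional difference therefore cannot be read as one of astrocytes alone.

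PDGFs are secreted dimers that bind and pair receptor tyrosine kinases at the cell surface. PDGF-A acts through the alpha receptor, PDGF-B binds both receptors, and PDGF-C and PDGF-D are released in latent form and need a protease to become active. In the retina, PDGF-A made by neurons drives the spread of Pdgfra-bearing astrocytes during development, Pdgfra also marks oligodendrocyte precursors in myelinated tracts, and PDGF-B from endothelium recruits Pdgfrb-bearing pericytes to vessels.

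Promoter sequence is shown for the receptor that stood above the optic nerve in retina IP (Pdgfra), for the ligand that stood farthest below it (Pdgfa) and for the ligand whose high retina IP libraries were those of Pdgfra (Pdgfd). The sequences are RefSeq's on GRCm38.p6, read 5′ to 3′ on the gene's strand. Each full window is the 250 bases before the annotated start, and capitals mark motif matches.
Pdgfra promoter, chr5:75152001-75152250, plus strand: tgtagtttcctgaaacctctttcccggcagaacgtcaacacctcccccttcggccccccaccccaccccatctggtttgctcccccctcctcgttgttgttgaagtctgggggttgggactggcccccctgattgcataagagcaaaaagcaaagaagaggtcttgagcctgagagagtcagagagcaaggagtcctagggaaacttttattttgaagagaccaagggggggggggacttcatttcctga
Pdgfd promoter, chr9:6168236-6168485, plus strand: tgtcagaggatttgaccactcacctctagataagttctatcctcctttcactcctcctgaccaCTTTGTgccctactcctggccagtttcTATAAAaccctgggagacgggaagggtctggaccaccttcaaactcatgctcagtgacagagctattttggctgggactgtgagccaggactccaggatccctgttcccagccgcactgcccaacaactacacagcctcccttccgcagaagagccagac
Pdgfa stretch, chr5:138995014-138995043, minus strand: cagcccCCGCCCtCCGCCCcttccgtcccc
Motifs were searched on both strands. The GC box was spelled GGGCGG, which binds factors of the Sp family. The TATA box was spelled TATAAA. For the CCAAT box the letters CCAAT were searched. A hypoxia response core was spelled ACGTG. The core bound by Sox factors was searched as ACAAAG, and no 2 matches overlapped. Among 32851 mouse promoters of the same length, these letters occurred, in that order, in 32.7%, 12.4%, 33.8%, 16.6% and 16.5%. The Pdgfra window held none of the 5 motifs, and its GC content was 54.4% against a median of 52.4% over all promoters. The Pdgfd window held 1 TATA box and, on the opposite strand, 1 Sox core. The Pdgfa stretch is 30 bases of a window with 72.4% GC, begins 99 bases before a start that RefSeq annotates and holds both GC boxes of that window. That start lies inside the gene as GENCODE M21 draws it, and the window overlaps exons of Pdgfa and of 6330403L08Rik. RefSeq has a second Pdgfa window, with 66.4% GC and 1 GC box, which is not shown. No expression value was tested against these matches.

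In the mm10 build with GENCODE M21 gene models, Pdgfra (ENSMUSG00000029231) lies on chromosome 5 from 75152292 to 75198215 on the plus strand. Pdgfrb (ENSMUSG00000024620) lies on chromosome 18 from 61045150 to 61085061 on the plus strand. Pdgfa (ENSMUSG00000025856) lies on chromosome 5 from 138976014 to 138997370 on the minus strand, and Pdgfb (ENSMUSG00000000489) on chromosome 15 from 79995874 to 80014977 on the minus strand. Pdgfc (ENSMUSG00000028019) lies on chromosome 3 from 81036416 to 81214040 and Pdgfd (ENSMUSG00000032006) on chromosome 9 from 6168584 to 6378850, both on the plus strand. The 2 receptors therefore sit on different chromosomes, while Pdgfra and Pdgfa share chromosome 5.

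The count per library ranged from 11164619 to 27431026. Levels are CPM, counts scaled to a library of 1000000 with TMM size factors, and they limit what a count of 0 shows: the 6 member values at 0 counts allow up to 0.147 to 0.408 CPM, from 3 counts, for counting error alone. All retinal libraries belong to batch 2 of the labels, and the nerve libraries to batch 1, except replicate 7 of ONH IP and of ONP IP, which were prepared with the retinal libraries to link the batches. Both linking libraries stood low among their groups in summed astrocyte markers (7175 and 12840 CPM), and ONH IP replicate 7 held 9941 CPM of Gnat1, the rod photoreceptor transducin gene, chosen after its values were seen, against a group median of 132.2. Its 11 rod markers summed to 54760 CPM, and the next ONH IP library held 979.1. Comparisons of regions estimate batch through the linking libraries. In that fit all 11 rod markers were called lower in retina IP than in ONH IP, where 21.1% of all genes were. Retina input replicates 1 and 2 had 16782 and 17082 genes detected and 8.17% and 15.2% of counts from mitochondrial genes, against at least 19835 genes and at most 4.01% in the other inputs. The labelled cell type was checked with 11 astrocyte markers: none was at 0 in any IP library, and their summed level was 6746 to 35110 CPM in retina IP, 7175 to 34400 in ONH IP and 12840 to 41440 in ONP IP. Retina input, without the precipitation, held 4040 to 6654 CPM. Retina IP replicates 1, 5 and 6, at 6746, 7670 and 9740 CPM, lay nearer to that range than replicates 2 to 4. Detecting these markers therefore does not by itself show that a library is astrocyte RNA. Oligodendrocyte markers, led by myelin genes, summed to 28350 to 74590 CPM in ONH IP and 36980 to 127200 in ONP IP, against 50.5 to 160 in retina IP.

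Pdgfra was the only member called higher in retina IP than in the optic nerve. Its level in retina IP was 151, 1162, 1083, 1402, 232 and 232 CPM in replicates 1 to 6. Retina input spanned 51.1 to 224 CPM with a median of 173. ONH IP spanned 17.3 to 62.0 CPM (median 40.4) and ONP IP 52.5 to 100 CPM (median 61.7). Retina IP replicates 2, 3 and 4 were far above every other library, replicates 1, 5 and 6 lay in or just above the input range, and all 6 lay above every nerve library.

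Against ONH IP, Pdgfra rose by 4.84 on the log2 scale in retina IP (SE 0.869, adjusted p = 0.000317, edgeR quasi-likelihood test with Benjamini-Hochberg adjustment over 16355 genes). Against ONP IP it rose by 3.94 (SE 0.807, adjusted p = 0.000916). Both calls held with any 1 of the 20 IP libraries left out, at adjusted p up to 0.0133 and 0.0195. Over those fits the log2 difference ran from 4.31 to 5.37 against ONH IP and from 3.56 to 4.62 against ONP IP. Over 9 other settings it ran from 3.87 to 5.56 and from 2.97 to 4.03. Within batch 2, where each nerve region has 1 library (17.3 CPM in ONH IP and 61.7 CPM in ONP IP), the log2 differences were 5.56 and 3.78, with adjusted p = 0.140 and 0.180. With only the groups compared in the fit, the ONP IP difference was 3.62 with adjusted p = 0.0545.

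Against its own input, Pdgfra in retina IP averaged 710.2 ± 564 CPM (SD, n = 6) and input 158 ± 61.1 CPM (SD, n = 6). The log2 difference of 2.29 (SE 0.590) did not pass edgeR's adjusted threshold (adjusted p = 0.0663), and neither did that of any other member: 0 of 6 were called, and 0% of the 15181 genes tested. At an unadjusted p under 0.05 there were 3356 genes (22.1%), among them Pdgfra and Pdgfa. DESeq2 called Pdgfra (log2 difference 2.25, adjusted p = 0.00266) where it called 6.38% of genes higher, limma-voom called no gene, and a single fit over all 26 libraries called Pdgfra (2.17, adjusted p = 0.00256) and 8.26% of genes higher. Leaving out retina IP replicate 1 or 5, which were among the 3 low libraries, gave edgeR adjusted p = 0.0374 and 0.0491 for Pdgfra, where 2.23% and 1.45% of genes were called higher.

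**Figure D1:**
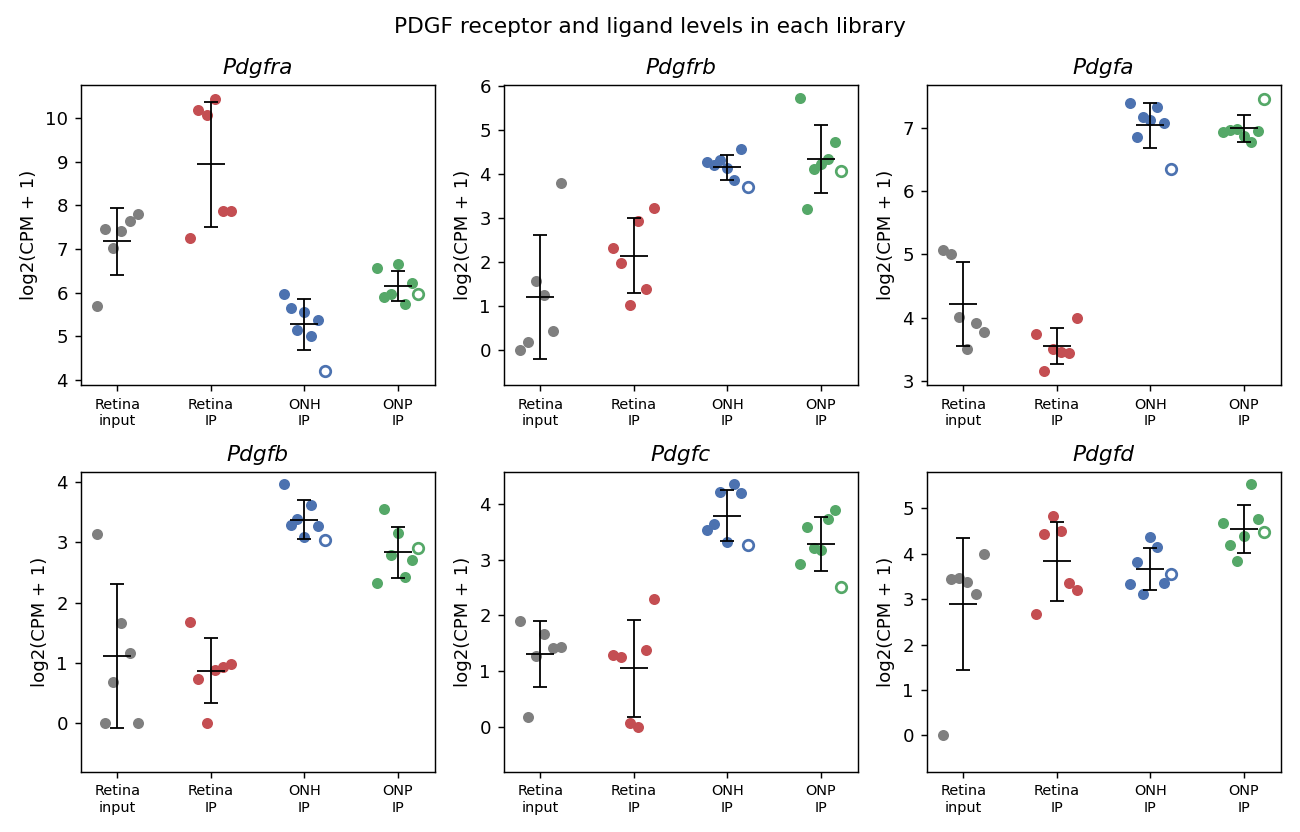
Level of each of the 6 PDGF genes in every library, as log2(CPM + 1) on the vertical axis, by group. Each point is 1 library, open circles are replicate 7 of ONH IP and ONP IP, and black bars are group means ± SD; the 3 high retina IP libraries of Pdgfra and the low Pdgfa of both retinal groups can be seen.

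The retina IP libraries with high Pdgfra were also those with high astrocyte markers. Summed over 11 markers, led by Gfap, Aldoc and Mlc1, retina IP replicates 1 to 6 held 6746, 20490, 30520, 35110, 7670 and 9740 CPM, so replicates 2 to 4 were again the high ones. Müller glia, the radial glia of the retina, showed the same split: their 6 markers, led by Glul, Dkk3 and Rlbp1, summed to 4114, 9341, 10400, 10480, 3719 and 6435 CPM. Ganglion cell markers went the other way, at 871.1 to 1983 CPM in replicates 2 to 4 and 4675 to 4985 CPM in the others. The sums of those others lay within the retina input range of 3640 to 8837 CPM. Mitochondrial genes took 1.03% to 2.23% of counts in replicates 2 to 4 and 0.155% to 0.384% in the others. In bulk RNA, fewer cells of a type and less RNA per cell cannot be told apart, and the part of these cells and of RNA quality in the spread of Pdgfra was not tested. Between retina IP and each nerve group the astrocyte sums overlapped, while Pdgfra did not. The Müller glia sums, 3719 to 10480 CPM in retina IP, 2044 to 3288 in ONH IP and 1324 to 1860 in ONP IP, did not overlap between retina IP and nerve either. Of the 6 Müller glia markers 3 rose in retina IP against each nerve region, where 12.7% (ONH IP) and 12.9% (ONP IP) of all genes rose. The part of Müller glia in the Pdgfra difference was not tested.

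Oligodendrocyte precursors also carry Pdgfra in nerve. The 12 precursor markers, led by Olig1, Gpr17 and Ptprz1, summed to 40.9 to 85.4 CPM in retina IP, 512.8 to 1268 in ONH IP and 1496 to 2083 in ONP IP. The retinal sum came mostly from Lhfpl3 (26.5 CPM) and C1ql1 (25.4 CPM), while Olig2 averaged 0.0410 CPM with 3 of 6 libraries at 0 and Sox10 0.0872 CPM with 1 of 6 at 0. Gpr17 averaged 0.0236 CPM with 3 of 6 retina IP libraries at 0, and was at 0 in 6 of 6 inputs. In retina IP, high Pdgfra thus stood beside Olig2, Sox10 and Gpr17 at or near 0. In the nerve, where Pdgfra was low, those markers were plentiful, and their part in the nerve level was not tested.

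**Figure D2:**
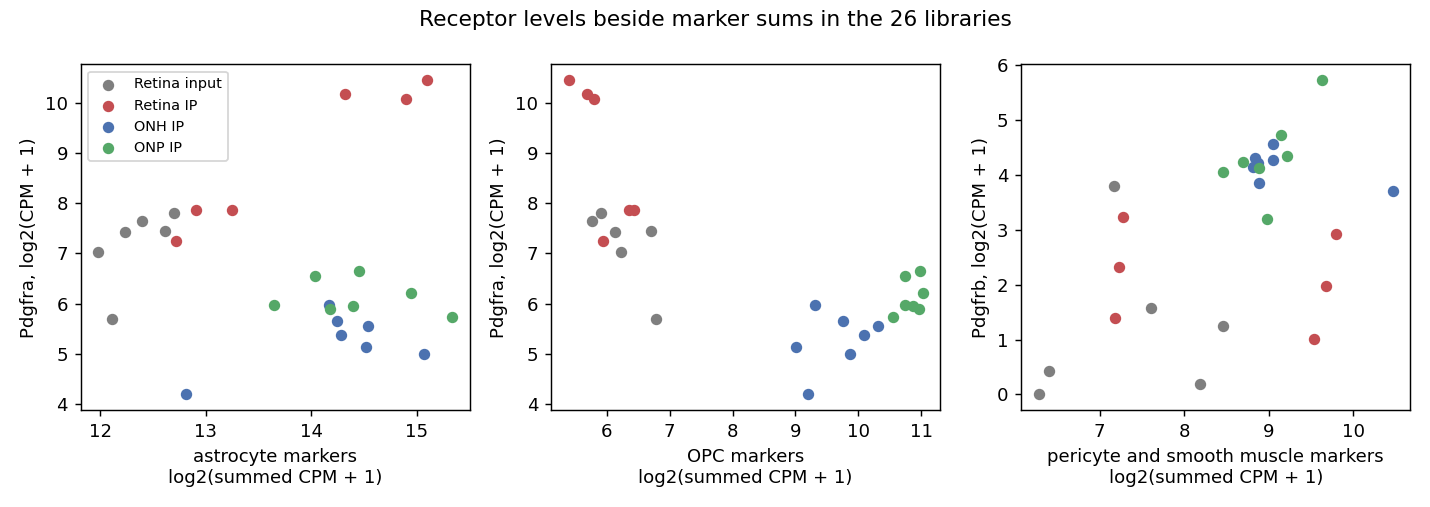
Receptor level against summed marker level, each point 1 library, both axes in CPM on log scales. Pdgfra is set against astrocyte and oligodendrocyte precursor markers and Pdgfrb against pericyte and smooth muscle markers; retina IP holds high Pdgfra at precursor sums of at most 85.4 CPM.

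In the main fit, which did not pair the libraries, Pdgfra did not pass the threshold between the 2 nerve regions, nor did any other member. There 0 of 6 were called by edgeR, against 4.43% of genes higher and 3.04% lower in ONH IP. A fit that paired the nerve libraries by replicate number called Pdgfra and Pdgfd lower and Pdgfc higher in ONH IP. That fit is given further below, with the check by which the numbers did not pair all libraries. ONH IP averaged 40.0 ± 14.4 CPM (SD, n = 7) and ONP IP 71.6 ± 18.3 CPM (SD, n = 7), and the groups overlapped between 52.5 and 62.0 CPM. The log2 difference, ONH IP over ONP IP, was -0.90 (SE 0.411, unadjusted p = 0.0412, adjusted p = 0.194). Over the 6 libraries a region of batch 1 alone it was -0.75 with adjusted p = 0.0225, a fit that called 8.01% of genes lower, and with only both groups in the fit -0.89 with adjusted p = 0.0101 (7.85% of genes lower). The precursor marker sums did not overlap between the regions, and 5 of the 12 markers fell in ONH IP. Their part in this difference was not tested.

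Pdgfrb, the receptor of pericytes and vascular smooth muscle, was low in the retina and higher in the nerve. Retina IP held 4.02, 2.93, 1.03, 6.63, 1.61 and 8.42 CPM in replicates 1 to 6. Retina input held 0, 0.136, 1.97, 1.39, 0.352 and 13.03 CPM, replicate 6 being far above the rest. ONH IP spanned 12.2 to 22.8 CPM (median 17.6) and ONP IP 8.20 to 52.3 CPM (median 17.8). Every retina IP library lay below every ONH IP library, while the highest retina IP library reached just past the lowest of ONP IP.

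Pdgfrb fell by 1.92 on the log2 scale in retina IP against ONP IP (SE 0.587, adjusted p = 0.0168), and by 1.54 against ONH IP (SE 0.592, adjusted p = 0.0498). The ONH IP call stood at the edge: it held in 4 of 20 fits that left out 1 library, and was lost with RLE size factors (adjusted p = 0.0597) and with DESeq2 (adjusted p = 0.0523). The ONP IP call was lost without ONH IP replicate 7 (adjusted p = 0.0513) or ONP IP replicate 7 (adjusted p = 0.149). Within batch 2 the log2 differences were -1.40 and -1.71, with adjusted p = 0.449 and 0.265. Against input the difference was 0.60 (SE 1.02, adjusted p = 0.797), and between the nerve regions -0.37 (SE 0.389, adjusted p = 0.615).

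Markers of pericytes and smooth muscle moved with Pdgfrb in part. The 12 markers, led by Vtn, Rgs5 and Mcam, summed to 144 to 890.6 CPM in retina IP, 449.3 to 1418 in ONH IP and 352 to 792.9 in ONP IP. The 1418 CPM was that of ONH IP replicate 7, which links the batches, and the next ONH IP library held 531.1. Group medians were close, at 449 CPM in retina IP, 474.1 in ONH IP and 505.6 in ONP IP. The retinal sum was mostly Rgs5 (442.9 CPM), and it was high in replicates 2 to 4. Pdgfrb was 2.93, 1.03 and 6.63 CPM there, and its highest value, 8.42 CPM, was in replicate 6. Of 11 markers tested against ONH IP, 8 fell and 1, Rgs5, rose, where 21.1% of all genes fell and 12.7% rose. Kcnj8 averaged 0.444 CPM in retina IP against 28.2 in ONH IP, and Anpep was at 0 in 5 of 6 retina IP libraries. Fibroblast markers, the other usual company of Pdgfrb, summed to 19.5 to 142 CPM in retina IP, 624.4 to 1218 in ONH IP and 213 to 1558 in ONP IP. ONP IP replicate 1, the library with 52.3 CPM of Pdgfrb, was the highest of its group in both sums, with 1558 CPM of fibroblast and 792.9 CPM of pericyte and smooth muscle markers. The part of these cells in the Pdgfrb difference was not tested.

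Pdgfa, the ligand that signals to retinal astrocytes through the alpha receptor, was the ligand with the highest level per length in the nerve and fell the most in retina IP. Retina IP held 12.4, 7.88, 10.4, 9.96, 9.91 and 14.96 CPM in replicates 1 to 6. ONH IP spanned 80.0 to 167 CPM (median 138) and ONP IP 109 to 175 CPM (median 122.5). Every retinal library lay below every nerve library. The fall was 3.56 on the log2 scale against ONH IP (log2 difference -3.56, SE 0.251, adjusted p = 3.78e-09) and -3.50 against ONP IP (SE 0.233, adjusted p = 1.47e-09).

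Both Pdgfa calls held in 20 of 20 fits without 1 library and in 9 of 9 other settings. The size depended on the linking libraries, of which ONH IP replicate 7 was the lowest of its group (80.0 CPM) and ONP IP replicate 7 the highest (175 CPM): over the fits without 1 library, the log2 difference ran from -4.22 to -2.87 against ONH IP and from -3.97 to -2.62 against ONP IP. Within batch 2 it was -2.71 (adjusted p = 0.00332) and -3.78 (adjusted p = 0.000639). Between the nerve regions Pdgfa differed by 0.06 (SE 0.166, adjusted p = 0.857).

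Retina input held 32.4, 31.2, 15.1, 10.4, 14.2 and 12.7 CPM of Pdgfa. The 2 high inputs are replicates 1 and 2, the libraries with few genes detected and much mitochondrial RNA. The difference between IP and input was -0.73 (SE 0.338, unadjusted p = 0.0474, adjusted p = 0.22), and -0.21 with adjusted p = 0.608 without those inputs. A fit over all 26 libraries gave -0.82 with adjusted p = 0.0282, where 8.46% of genes were called lower. Exons of Pdgfa share 813 bases, 26.1% of its exon length, with 6330403L08Rik on the other strand, and the strand setting of the counting is not given in the sources used here. That gene was counted 558 times over ONH IP and 232 times over retina IP, against 18304 and 1388 for Pdgfa.

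Pdgfb, the ligand that endothelium uses to recruit pericytes, was low in the retina, with 0 counts in 1 retina IP library and 2 inputs. Retina IP held 2.21, 0.663, 0, 0.847, 0.922 and 0.971 CPM, and retina input 7.85, 0, 0.616, 2.18, 1.26 and 0. ONH IP spanned 7.22 to 14.7 CPM (median 8.81) and ONP IP 4.00 to 10.7 CPM (median 5.95). All retina IP libraries lay below all nerve libraries. Pdgfb fell by 3.12 against ONH IP (SE 0.673, adjusted p = 0.00152) and by 2.55 against ONP IP (SE 0.664, adjusted p = 0.00609). The ONP IP call was lost without ONP IP replicate 7 (adjusted p = 0.132), and within batch 2 the differences were -2.78 and -2.56 with adjusted p = 0.251 and 0.228.

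Endothelial markers, led by Cldn5, Esam and Ly6c1, summed to 11.1 to 41.1 CPM in retina IP, 22.6 to 378 in ONH IP and 28.9 to 226 in ONP IP. Of 10 tested, 8 fell against ONH IP and 7 against ONP IP, where 21.1% and 19.9% of all genes fell. The part of endothelial cells in the Pdgfb difference was not tested. Against input, Pdgfb differed by -0.98 (SE 1.14, adjusted p = 0.685), and the estimate turned to 0.28 without input replicate 1. Between the nerve regions the difference was 0.57 (SE 0.447, adjusted p = 0.474).

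Pdgfc, a latent ligand of the alpha receptor, followed the same order. Retina IP held 1.46, 1.40, 0.0489, 0, 1.61 and 3.89 CPM, and retina input spanned 0.136 to 2.73 CPM (median 1.68). ONH IP spanned 8.63 to 19.5 CPM (median 11.4) and ONP IP 4.68 to 13.8 CPM (median 8.23). Retina IP lay below the nerve in every library, yet only the ONH IP difference passed. Pdgfc fell by 2.46 against ONH IP (SE 0.815, adjusted p = 0.0250), a call that was lost without ONH IP replicate 7 (adjusted p = 0.186) or ONP IP replicate 7 (adjusted p = 0.0648). Against ONP IP the difference was -1.90 (SE 0.85, adjusted p = 0.0928), and without retina IP replicate 6 it was -2.46 with adjusted p = 0.0264. Within batch 2 the differences were -2.48 and -1.54 (adjusted p = 0.435 and 0.587). Against input it was -0.18 (SE 0.925, adjusted p = 0.947) and between nerve regions 0.56 (SE 0.548, adjusted p = 0.591).

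Pdgfd, a latent ligand of the beta receptor, did not pass in any comparison. Retina IP held 5.34, 20.7, 27.5, 21.7, 9.16 and 8.22 CPM, so its 3 high libraries were replicates 2 to 4, those of Pdgfra. Retina input held 0 CPM in replicate 1 and 7.65 to 14.8 CPM in the others. ONH IP spanned 7.60 to 19.8 CPM (median 10.7) and ONP IP 13.3 to 45.1 CPM (median 21.3), and all groups overlapped.

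The log2 difference of Pdgfd was 0.54 against ONH IP (SE 0.571, adjusted p = 0.490), -0.43 against ONP IP (SE 0.544, adjusted p = 0.585) and 0.95 against input (SE 0.734, adjusted p = 0.494). Within batch 2 the nerve differences were 0.72 and -0.22, with adjusted p = 0.724 and 0.897. ONH IP over ONP IP gave -0.97 (SE 0.348, unadjusted p = 0.0114, adjusted p = 0.0940). In batch 1 alone that difference was -0.96 with adjusted p = 0.0436, so Pdgfra and Pdgfd were the 2 members called lower in ONH IP there.

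Against ONH IP, 1 member, Pdgfra, rose and 4 fell, where 12.7% of genes rose and 21.1% fell. Against ONP IP, 1 rose and 3 fell, where 12.9% rose and 19.9% fell. Libraries did not overlap for Pdgfra above ONH IP (8.77% of genes) and for 4 members below it (14.1% of genes). Against ONP IP the same held for Pdgfra above (11.8% of genes) and for Pdgfa, Pdgfb and Pdgfc below (16.5% of genes). The 2 comparisons share the retina IP libraries. The median log2 difference of the 4 ligands was -2.79 against ONH IP and -2.22 against ONP IP, beside -0.13 and -0.10 over all genes tested.

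**Figure D3:**
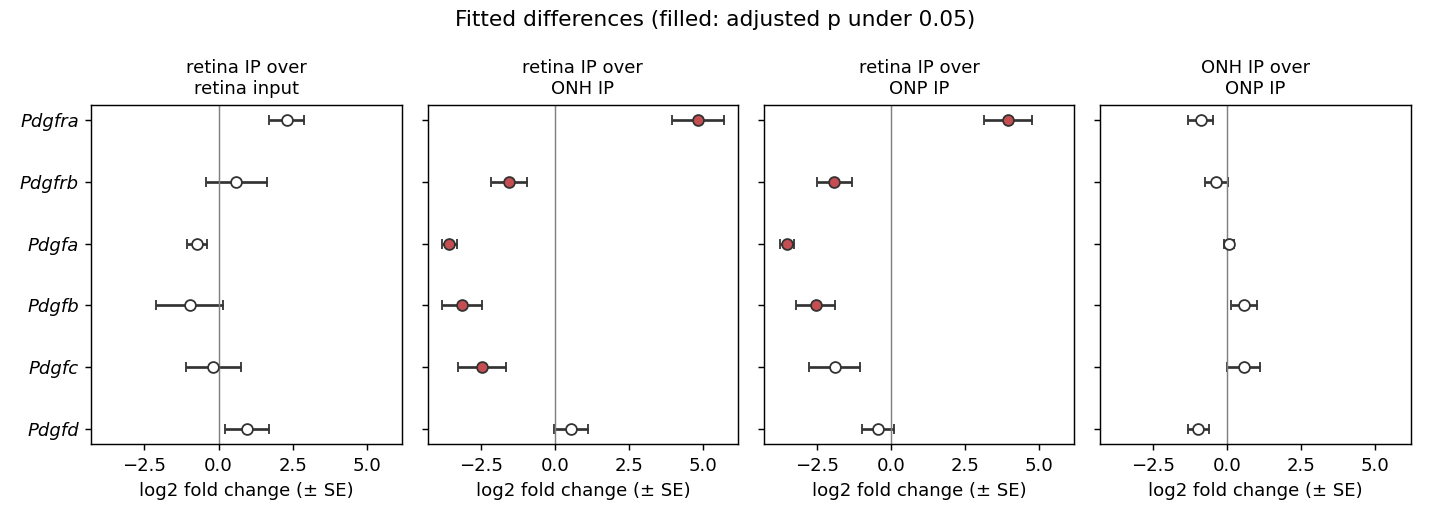
Log2 difference of each member in the 4 comparisons, with bars of ± 1 SE. Filled points passed an adjusted p under 0.05; Pdgfra lies to the right and Pdgfa, Pdgfb and Pdgfc to the left in both retina against nerve comparisons, and no point is filled against input or between the nerve regions.

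Levels of different genes were set side by side only per kilobase of annotated exon, a scale on which Pdgfra, whose models add up to 10024 bases, is understated if its shorter transcripts dominate. In retina IP, Pdgfra held 70.9 CPM per kb against 0.750 for Pdgfrb. In ONH IP the receptors were close, at 3.99 and 3.13 CPM per kb. Pdgfra made up 93.8% to 99.8% of receptor RNA per kb in retina IP and 43.7% to 64.8% in ONH IP, ranges that do not overlap. Retina input, at 90.4% to 100%, overlapped retina IP, and ONP IP held 49.4% to 79.6%.

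Among the ligands, Pdgfa led in the nerve with 42.9 CPM per kb in ONH IP and 40.9 in ONP IP, followed by Pdgfd with 3.89 and 7.58. In retina IP, Pdgfd (4.90 CPM per kb) and Pdgfa (3.50) were close as group means, and Pdgfb and Pdgfc held 0.225 and 0.275. The leading ligand differed between the retina IP libraries. Pdgfd led in replicates 2 to 4, with 67.0% to 72.4% of ligand RNA per kb, and Pdgfa in replicates 1, 5 and 6, with 48.0% to 61.2%. Pdgfa was 79.0% to 86.3% of ligand RNA per kb in ONH IP and 26.6% to 61.2% in retina IP, while ONP IP (66.3% to 85.9%) and retina input (44.6% to 81.1%) overlapped each other. The summed ligands were 5.60 to 11.4 times the summed receptors in ONH IP, 2.59 to 7.25 times in ONP IP, 0.368 to 2.51 times in retina input and 0.0729 to 0.410 times in retina IP. Nerve libraries thus held more ligand than receptor RNA per length and retina IP libraries more receptor than ligand.

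**Figure D4:**
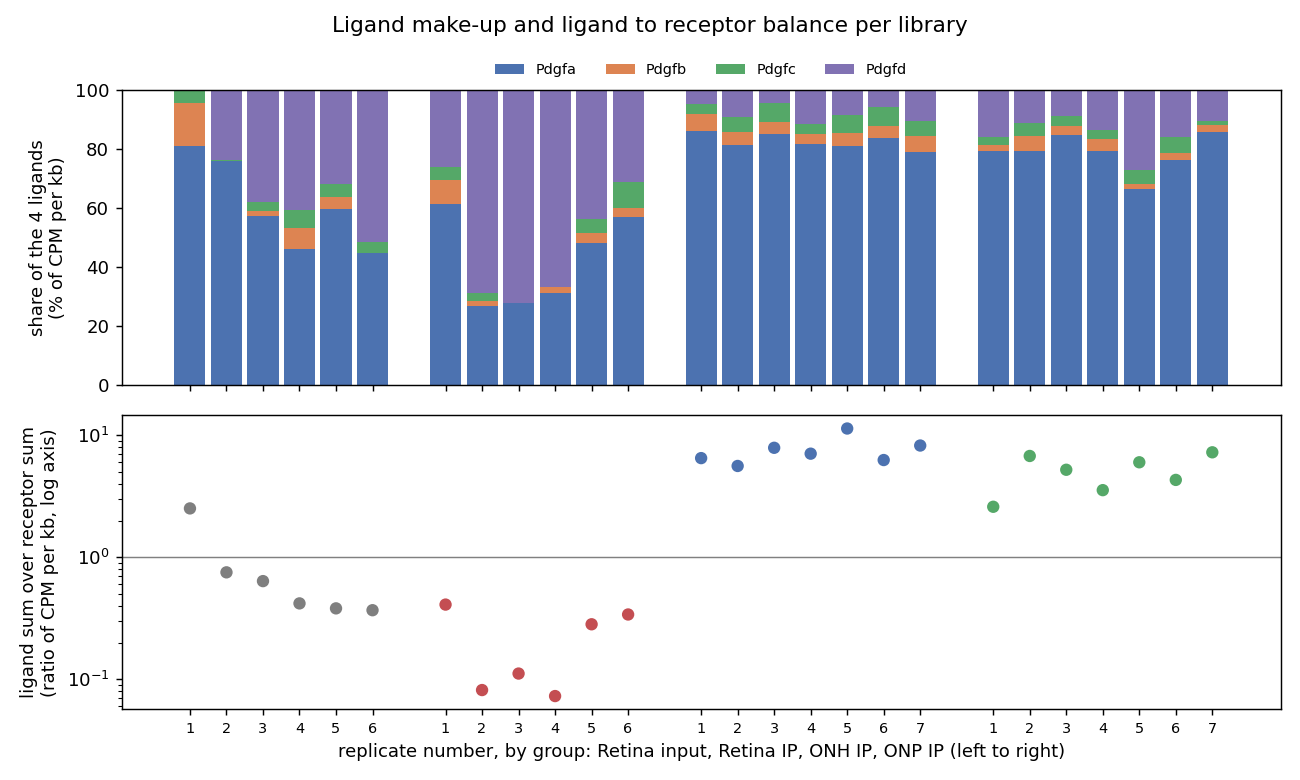
Share of each ligand in the summed ligand level per kb (top, percent) and the summed ligands over the summed receptors per kb (bottom, log axis), for every library by group. All ONH IP and ONP IP libraries lie above 1 in the lower panel and all retina IP libraries lie below it.

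Among the genes for proteins that release, bind or clear PDGFs, Plat fell the most in retina IP. Plat encodes tissue plasminogen activator, which cleaves latent PDGF-C. It averaged 30.1 ± 7.61 CPM in retina IP (SD, n = 6), 1087 ± 354 in ONH IP and 922 ± 477 in ONP IP (SD, n = 7 each). Its retina IP range, 19.1 to 40.1 CPM, lay far below the nerve, where the lowest library held 340.1. Plat fell by 3.68 against ONH IP (SE 0.315, adjusted p = 5.22e-08) and by 3.45 against ONP IP (SE 0.315, adjusted p = 9.75e-08), and both calls held in 20 of 20 fits without 1 library.

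Of 8 genes tested in this list, 1 rose and 2 fell against ONH IP, and 1 rose and 1 fell against ONP IP, beside the shares of all genes given for the members. The gene that rose was St14, the membrane protease matriptase, by 3.53 (adjusted p = 0.00852) and 3.12 (adjusted p = 0.0135), though not without ONH IP replicate 7 (adjusted p = 0.106 and 0.105) nor, against ONP IP, without ONP IP replicate 7 (adjusted p = 0.0812). Lrp1, an endocytic partner of the beta receptor, fell by 1.01 against ONH IP (adjusted p = 0.0322), a call that held in 13 of 20 fits without 1 library. Sparc, which binds PDGF chains, held 2717 CPM in retina IP, 9218 in ONH IP and 4409 in ONP IP and passed in no comparison. The list's median log2 difference was -0.77 against ONH IP and -0.20 against ONP IP.

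The 34 genes that relay the receptor signal had 4 higher and 6 lower against ONH IP (12.7% and 21.1% of all genes) and 5 higher and 7 lower against ONP IP (12.9% and 19.9% of all genes), shares near those of all genes. Their median log2 difference was -0.02 and -0.03. Nras, a small GTPase downstream of receptor kinases, fell by 2.79 (22.6 against 198.5 CPM, adjusted p = 8.97e-06) and 2.99 (225 CPM in ONP IP, adjusted p = 1.84e-06). Pik3r3, a regulatory subunit of PI3 kinase, rose by 2.67 (113.8 against 23.8 CPM, adjusted p = 1.69e-05) and 2.36 (adjusted p = 7.35e-05). These 4 calls held in 20 of 20 fits without 1 library and within batch 2, at adjusted p up to 0.0366. Fyn, a Src family kinase, fell by 1.17 and 1.91 (adjusted p = 0.0121 and 0.000147), and Gab1, a docking adaptor, by 1.71 against ONP IP (adjusted p = 0.00486). Vav3, a guanine nucleotide exchange factor, rose by 2.40 and 3.62 (adjusted p = 0.0249 and 0.00443). Without ONP IP replicate 7 the calls for Vav3, for Fyn against ONH IP and for Gab1 were lost, at adjusted p = 0.232 and 0.122, 0.126, and 0.122.

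Of 15 genes that damp the signal, 3 were higher and 3 lower against each nerve region, not far from the shares of all genes (12.7% and 21.1% against ONH IP, 12.9% and 19.9% against ONP IP), with a median log2 difference of 0.00 and 0.24. Spry2 and Spry4, feedback inhibitors of receptor kinases, went opposite ways: Spry2 fell by 2.56 against ONH IP (4.43 against 11.2 CPM, adjusted p = 0.00332) and Spry4 rose by 1.45 (18.6 against 12.9 CPM, adjusted p = 0.0182) and, against ONP IP, by 2.23 (adjusted p = 0.00120). Nf1, which switches Ras off, fell by 1.44 and 1.57 (adjusted p = 0.000298 and 7.30e-05). The phosphatase gene Ptprj rose by 1.98 and 2.21 (adjusted p = 0.0170 and 0.00679). Without ONH IP replicate 7 the Ptprj calls were lost (adjusted p = 0.248 and 0.0896). The call of Spry4 against ONH IP was lost without ONH IP replicate 7 or ONP IP replicate 7 (adjusted p = 0.149 and 0.0812), and it held in 3 of 9 other settings. Without the batch term the log2 difference of Spry4 was 0.57 (adjusted p = 0.118) against ONH IP and 1.36 against ONP IP, and that of Spry2 against ONH IP was -1.31.

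Among 14 tested genes of related receptor kinases and their ligands, 4 rose and 2 fell against ONH IP (12.7% and 21.1% of all genes), and 6 rose and 2 fell against ONP IP (12.9% and 19.9% of all genes), with a median of 0.62 and 1.29. Vegfa, the vascular growth factor gene, held 130 ± 91.2 CPM in retina IP (SD, n = 6) and 18.5 ± 5.52 in ONH IP (SD, n = 7), and rose by 2.63 and 2.94 (adjusted p = 0.00390 and 0.00223). Kit, a receptor kinase of the same class as the PDGF receptors, rose by 2.68 and 2.44 (adjusted p = 0.00539 and 0.00984). Kit averaged 47.8 CPM in retina IP, 18.1 in ONH IP and 21.6 in ONP IP, and without the batch term its differences were 1.44 and 1.17. Its calls held in 6 and 4 of 9 other settings. Without ONP IP replicate 7 the calls of Vegfa (adjusted p = 0.0643 and 0.0765) and of Kit (adjusted p = 0.0648 and 0.141) were lost. Csf1r, the microglial receptor of that class, fell by 2.66 and 3.62 (adjusted p = 0.00589 and 0.000367). Microglial markers summed to 125 to 199 CPM in retina IP and 346 to 3167 in ONH IP, and their part in the Csf1r difference was not tested. Within batch 2 the calls named from these lists were lost for St14, Lrp1, Gab1, Spry2, Spry4, Ptprj, Vegfa and Kit, and against ONH IP for Fyn, Vav3, Nf1 and Csf1r.

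Against input, 0 genes of the 4 pathway lists were called. Their median log2 differences were 1.17 for the processing and binding list, where 8 of 8 estimates were above 0, then 0.24, 0.33 and 0.60 for the relay, damping and related lists, beside 0.02 over all genes. Between the nerve regions, where 4.43% of all genes were higher and 3.04% lower in ONH IP, 1 gene rose and 0 fell in the damping list (Ptpn2, 0.65, adjusted p = 0.0197), and 1 rose and 4 fell in the relay list, among them Gab1 (fell by 1.05, adjusted p = 0.0342) and Fyn (fell by 0.74, adjusted p = 0.0461). These relay calls were weak: Gab1 held in 11 and Fyn in 8 of 20 fits without 1 library. Flt3, a related receptor kinase, rose by 3.24 in ONH IP (15.97 against 1.83 CPM, adjusted p = 0.00480) and held in 20 of 20.

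Across the 26 libraries, the genes closest to Pdgfra in profile were C1ql4, Lrrtm3, Cd38, Epas1 and Smpdl3b. Likeness was the root-mean-square difference of mean-centred log2(CPM + 1), which was 0.543 to 0.654 for these 5 genes, where the SD of Pdgfra itself was 1.6. Epas1, a hypoxia-inducible transcription factor gene, averaged 398.9 CPM in retina IP, 127.7 in input, 46.1 in ONH IP and 47.9 in ONP IP. The genes closest to Pdgfrb were Myof, Fam174b, Scara3, Sulf1 and Tns1, at 0.595 to 0.695 beside an SD of 1.59. Each of these 5, like Pdgfrb, averaged higher in both nerve groups than in either retinal group, which their choice by profile largely fixed. The libraries share batch and astrocyte content, so likeness is a description.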

How the data were processed

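Poly(A) RNA of 26 mouse libraries was captured on oligo-dT beads and turned into cDNA with a low-input kit, per the labels' protocols. Values in the deposited table are each gene's estimated count, whole numbers that the authors obtained with Salmon 1.6.0 on mm10, per the submitters' processing notes. Whether the counting used strand is not given in the sources used here. Symbols, positions and exon lengths came from GENCODE M21 (54495 of 54532 genes matched), promoters from RefSeq. The genes and lists were chosen with earlier results of these data known. Tests used edgeR 4.0.16 in R 4.3.3 (quasi-likelihood F test, TMM, filterByExpr at count 10 and total 15), with Benjamini-Hochberg adjustment over all genes tested and a threshold of 0.05. The input comparison was fitted on the 12 retinal libraries with no covariate, and comparisons of regions on all 20 IP libraries with batch as a term. Alternatives were RLE size factors, no filter, DESeq2 1.42.0, limma-voom (limma 3.58.1), other library sets, batches apart, a replicate block and each library left out. The scripts were tested on simulated data. Besides the 6 members, pathway genes named were those called, with at least 10 CPM in the higher group and up to 3 of the largest log2 differences per list, comparison and direction, Sparc being added after its values were seen. From marker lists the 3 highest genes and defining markers at or near 0 were named. A result that this rule would also name is not reported here.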

Additional observations from a re-analysis of the deposited data

Results flagged for a closer look

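Of 24 combinations of a member and a group, 5 held a library whose gap to its nearest neighbour, over the group's whole range, was above Dixon's 95% critical value. Chance gives about 1 in 20 for independent, normally distributed values. CPM was not checked for that shape and the combinations share libraries, so the count is not read as an excess. Pdgfa in ONP IP replicate 7 was 175.0 CPM, with the next library at 125.7. Pdgfb in retina input replicate 1 was 7.851 CPM, with the next at 2.177. Pdgfd in ONP IP replicate 5 was 45.09 CPM, with the next at 25.97. Pdgfrb in ONP IP replicate 1 was 52.25 CPM, with the next at 25.46, and in retina input replicate 6 it was 13.03 CPM, with the next at 1.97. ONP IP replicate 7 links the batches, retina input replicate 1 has few genes detected and much mitochondrial RNA, and ONP IP replicate 1 held 1558 CPM of fibroblast markers, with the next ONP IP library at 395.6. The part of these in the values was not tested.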

How the results depend on the processing

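Against input, where 0 genes were called, 193 were without a filter on low counts, 2072 by DESeq2, 2871 in a fit over all 26 libraries, 49 without input replicates 1 and 2 (chosen after seeing the data) and 0 to 381 over the fits without 1 library, with 381 without retina IP replicate 1, 246 without retina IP replicate 5 and 1 without input replicate 2. Members called were 1 by DESeq2, 2 over all 26 libraries and 0 to 1 without 1 library. The estimate of Pdgfb turned to 0.15 with limma-voom and ran from -1.42 to 0.28 over the fits without 1 library, the latter without input replicate 1. That of Pdgfc ran from -0.77 to 0.09 (0.085), and was above 0 without input replicate 1 (0.03) or retina IP replicate 3 or 4. No member's estimate changed sign in the other 3 comparisons.

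Against ONH IP, 5532 genes were called, and 3596 over all 26 libraries, 8465 without a batch term, 2069 with only the groups compared, 818 within batch 2 and 2984 (without ONP IP replicate 7) to 6027 without 1 library. The 5 members called became 3 with only the groups compared, 1 within batch 2 and 3 without ONH IP or ONP IP replicate 7. Against ONP IP, 5371 genes were called, and 8851 without a batch term, 1690 within batch 2 and 2155 (without ONP IP replicate 7) to 5741 without 1 library. The 4 members called became 2 over all 26 libraries, 2 with only the groups compared, 1 within batch 2 and 2 without ONP IP replicate 7. Between the nerve regions, 1223 genes were called, and 2041 by DESeq2, 511 over all 26 libraries, 2294 with only the groups compared, 2445 in batch 1, and 601, 640, 753, 720 and 788 without ONH IP replicate 1 or 3 or ONP IP replicate 2, 4 or 6, with 1566 the most without 1 library. The 0 members called became 2 with only the groups compared and 2 in batch 1. Fewer libraries entered the fits of 1 batch, and a fit within batch 2 assumes that the lone nerve library varies like the retinal ones. The cause of the other shifts was not tested. Mean CPM of every member in every group moved by less than 1 SD with plain library totals.

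Equal replicate numbers did not pair the libraries by the check used, in which libraries of 1 number had to deviate together (correlation over 0.1) in every pair. The correlation was -0.319 to 0.283 in the retina, where 2 of 6 correlated best with their own number, and -0.006 to 0.628 in the nerve, where 5 of 7 did. With a replicate block, 0 genes were called against input (Pdgfra 1.90, adjusted p = 0.173). The block and the batch term could not be estimated together in the 20 IP libraries, so added fits used the block without the batch term: 9454 genes and 5 members were called against ONH IP, and 9699 genes and 5 members, Pdgfc among them, against ONP IP. A block over both nerve groups alone called 3118 genes and 3 members (Pdgfra -0.89, Pdgfd -0.94 and Pdgfc 0.56, with adjusted p = 0.00373, 0.00799 and 0.0472).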

Other observations

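Pdgfra lies on chromosome 5 in a run of receptor kinase genes, with Kit from 75574916 to 75656722 and Kdr from 75932827 to 75978458 downstream of it. The look at its surroundings was chosen after the values of Kit and Kdr were seen. Of 11 protein-coding genes within 1000000 bases of Pdgfra, itself included, 10 were tested. Against ONP IP, 4 rose (Lnx1, Pdgfra, Kit and Kdr) and 0 fell, where 12.9% of all genes rose and 19.9% fell. Against ONH IP, 3 rose (Lnx1, Pdgfra and Kit) and 1, Chic2, fell, where 12.7% of all genes rose and 21.1% fell. Apart from Pdgfra, Kit and Kdr, which prompted the look, only Lnx1 rose, so the counts cannot show whether the region stands out.

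Kdr, the main VEGF receptor gene, held 96.2 ± 53.3 CPM in retina IP (SD, n = 6) and 8.99 ± 4.66 in ONP IP (SD, n = 7), and rose by 3.06 on the log2 scale (edgeR, SE 1.06, adjusted p = 0.0323). That call was lost without ONH IP replicate 7 (adjusted p = 0.0952) or ONP IP replicate 7 (adjusted p = 0.263). Against ONH IP (24.7 ± 18.9 CPM, SD, n = 7) the difference was 1.62 with adjusted p = 0.196. The closest gene upstream, Gsx2, was at or near 0 in every group. Fip1l1, farther upstream, held 56.0 to 74.6 CPM as group means and passed in no comparison. Lnx1, which overlaps the end of Fip1l1, rose by 1.66 against ONH IP (adjusted p = 0.00842) and 1.41 against ONP IP (adjusted p = 0.0230).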
